A study of Drosophila melanogaster with 6 samples.

Results

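The 5.8S rRNA and the main 5S rRNA are small RNAs of the large ribosomal subunit, and they were the most abundant RNAs in short-RNA libraries made from the midguts of female fruit flies (Drosophila melanogaster). They were taken as the transcripts annotated as 5.8SrRNA:CR45852 and 5SrRNA:CR33434, and they are 2 of the 527 listed transcripts that could be matched to the annotation, beside 4 that could not. The mutant flies carried 1 copy of Polr3D, which encodes a subunit specific to RNA polymerase III (Pol III), disrupted by the P-element insertion EY22749 (dC53EY22749 in the labels, after the older gene name). Flies homozygous for the insertion are not viable, and the study reports less Polr3D mRNA in heterozygous females. It treats the heterozygous mutant as a partial loss of Pol III function. The insertion had been backcrossed into an outbred Dahomey background. The wild type is labelled White Dahomey. Both genotypes were sampled at 1 week of age per the study, with 3 libraries from each. In both, RNA below 200 nucleotides was selected and demethylated before sequencing. The labels do not say whether the 3 libraries of a genotype came from separate cohorts of flies, so p-values measure the spread between these libraries.

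Ribosomes hold 1 copy of each RNA, but the RNAs come from different polymerases. RNA polymerase I makes one long precursor from the ribosomal DNA, and the 5.8S rRNA is cut out of it together with the 18S, 2S and 28S rRNAs, with the help of small nucleolar RNAs (snoRNAs). In flies and related insects the 5.8S region is followed by the very short 2S rRNA as a separate molecule. The 5S rRNA is instead transcribed by Pol III from its own tandem gene array with the factor TFIIIA, and is brought to the assembling subunit with ribosomal proteins. Comparing the pair therefore asks whether a loss of Pol III function alters its own ribosomal product relative to the product of RNA polymerase I.

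On the BDGP6 assembly, 5.8SrRNA:CR45852 (FBtr0346887) is a gene of 123 bases on the unplaced rDNA scaffold, from 46205 to 46327 on the plus strand. It lies inside the annotated precursor pre-rRNA:CR45845 (42623 to 49485). The 18S rRNA ends upstream of it at 45478, the 2S rRNA spans 46356 to 46385 and the 28S rRNA starts at 46771. 5SrRNA:CR33434 (FBtr0086426) is a gene of 135 bases on chromosome 2R, from 19736248 to 19736382 on the minus strand. It is one of 96 annotated 5S genes, all on the minus strand of 2R, within 36.7 kb and with a median distance of 369 bases from one start to the next. Only 11 of the 96 are listed, and only 1 of 4 annotated 5.8S genes, so each row can stand for several gene copies and counts cannot be assigned to a single locus.

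**Figure D1:**
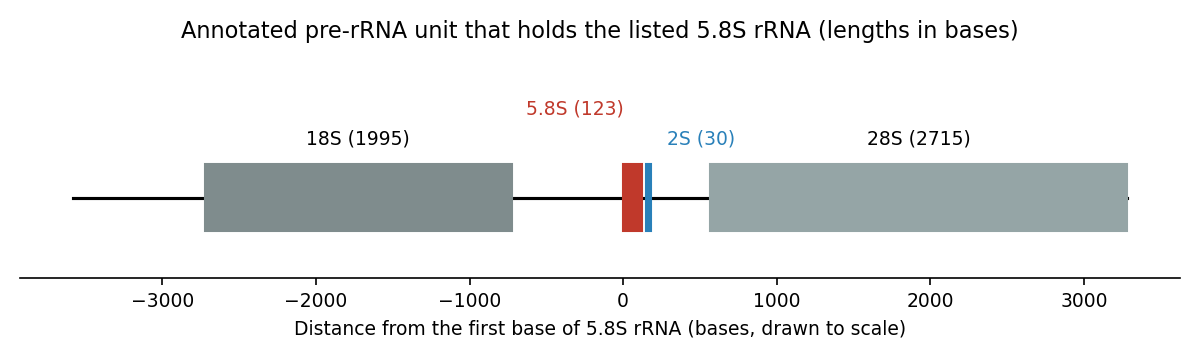
The annotated precursor that holds the listed 5.8S rRNA, with the horizontal axis in bases from its first base. The 5.8S rRNA (123 bases) and the 2S rRNA (30 bases) sit between the 18S (1995 bases) and 28S (2715 bases) regions, and of these only the 5.8S rRNA is a listed transcript.

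Each library held 13465392 to 16891428 estimated counts, and the 95% Wilson interval of a member's share was at most 0.0265 percentage points to either side, covering counting error only. The Polr3D transcript itself lies outside the short RNAs and was not used here, and the genotypes rest on the labels. The midgut label could not be checked against defining markers, which are mRNAs. Of the short-RNA markers of other cell types, the precursor of the muscle microRNA mir-1 held 1 count in 1 library and 0 in the other 5. A count so near the floor cannot show whether muscle was present. The neuronal mir-124 precursor is not listed.

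The 5.8S rRNA ranked first by counts in all 6 libraries. Its counts were 5407014, 5942726 and 5947041 (mutant replicates 1 to 3) against 5904610, 6556813 and 7436573 (wild-type replicates 1 to 3). These were 37.9%, 35.2% and 38.0% of all counts in the mutant, and 43.9%, 45.1% and 44.2% in the wild type. All mutant libraries lay below all wild-type libraries, with a gap wider than the range within either genotype. The mean share was 37.0% ± 1.59 (SD, n = 3) against 44.4% ± 0.621 (SD, n = 3), which differ by -7.34 percentage points (exact permutation test, two-sided p = 0.1, the smallest that 3 libraries against 3 can give). A lower share in all mutant libraries was common, however, and was found in 28.2% of the 411 transcripts tested. Fewer cells of a type, less RNA per cell and a rise of other RNAs cannot be told apart by shares in such bulk samples.

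The 5S rRNA ranked second in all 6 libraries, ahead of the mitochondrial valine tRNA, the next most counted RNA. Its counts were 3564213, 4462675 and 2655159 (mutant replicates 1 to 3) against 2408992, 2611099 and 3731350 (wild-type replicates 1 to 3). The shares were 24.96%, 26.42% and 16.97% in the mutant, and 17.9%, 17.9% and 22.2% in the wild type. Mutant replicates 1 and 2 were the highest, whereas mutant replicate 3 was the lowest of all 6. The mutant mean of 22.8% ± 5.09 (SD, n = 3) exceeded the wild-type mean of 19.3% ± 2.46 (SD, n = 3) by 3.45 percentage points. This was less than the mutant SD but more than the wild-type SD, and the genotypes overlapped (exact permutation test, two-sided p = 0.4). This difference was 6.35 points without mutant replicate 3 and 1.63 points without mutant replicate 2. The 5S rRNA thus varied far more between libraries of one genotype than the 5.8S rRNA did.

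The RNAs together took 62.8%, 61.6% and 55.0% of the mutant counts and 61.7%, 63.0% and 66.4% of the wild-type counts. The mutant replicate 3 library stood apart with the lowest summed share, and 45.0% of its counts fell on all other transcripts against 33.7% to 38.4% in the other 5 libraries. The summed share differed by -3.89 percentage points, and the genotypes overlapped (exact permutation test, two-sided p = 0.2). The difference was -1.49 percentage points without mutant replicate 3, -2.56 without wild-type replicate 3 and -5.40 without mutant replicate 1. With mitochondrial tRNAs left out of the total it was -4.46, and the genotypes no longer overlapped (exact permutation test, two-sided p = 0.1). Because the pair takes 55.0% to 66.4% of each library, a change in either moves the shares of all other RNAs.

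Dividing one by the other removes the library total. The ratio of 5S to 5.8S, in counts per annotated base, was 0.601, 0.684 and 0.407 (mutant replicates 1 to 3) against 0.372, 0.363 and 0.457 (wild-type replicates 1 to 3). Mutant replicates 1 and 2 exceeded every wild-type library, but mutant replicate 3 fell below wild-type replicate 3. In counts, the log2 ratio averaged -0.73 ± 0.39 (SD, n = 3) for the mutant against -1.21 ± 0.18 (SD, n = 3) for the wild type. The difference of 0.48 on the log2 scale, or 1.39-fold, was larger than either SD, but the genotypes overlapped (exact permutation test, two-sided p = 0.2). Without mutant replicate 3 it was 0.70, and without mutant replicate 2 it was 0.32. Whether selection by size and demethylation recover both RNAs equally was not tested, and both steps were applied to all 6 libraries.

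**Figure D2:**
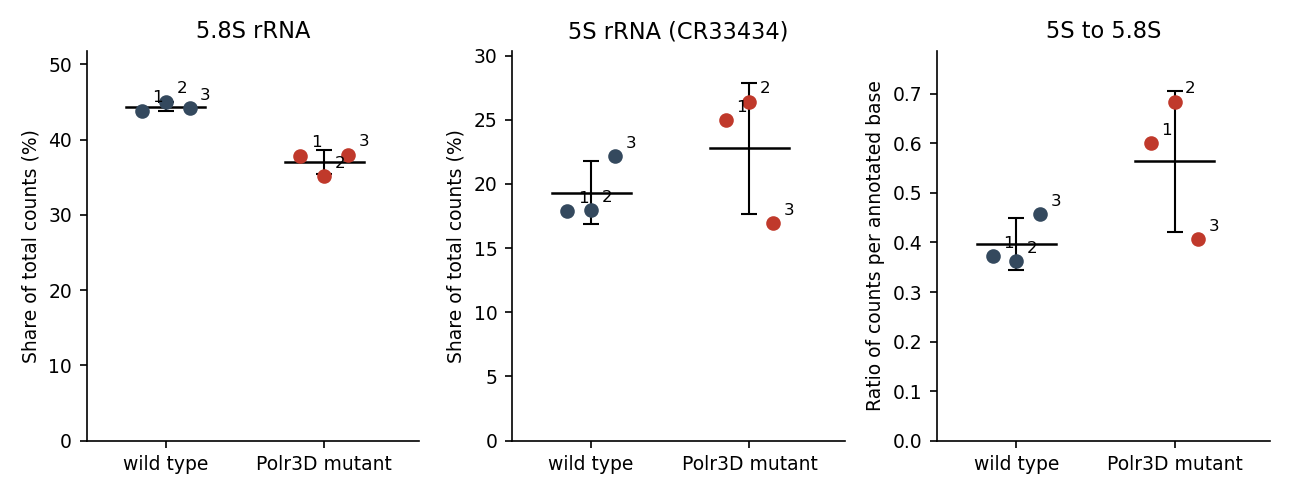
Share of total counts (%) of the 5.8S and 5S rRNA and the ratio of 5S to 5.8S counts per annotated base, with 1 point per library labelled by replicate number, and the mean and SD of each genotype in black. The 5.8S shares do not overlap between genotypes (35.2% to 38.0% against 43.9% to 45.1%), whereas mutant replicate 3 is the lowest library for 5S (16.97%) and has a ratio (0.407) inside the wild-type range.

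In edgeR's quasi-likelihood test with TMM scaling, fitted across 411 transcripts, the 5.8S rRNA had TMM-scaled CPM (counts relative to the scaled library total) of 390450, 386460 and 400300 (mutant replicates 1 to 3) against 388020, 435700 and 432840 (wild-type replicates 1 to 3). On this scale wild-type replicate 1 lay within the mutant range. The log2 fold change was -0.09 (SE 0.15, 95% interval -0.44 to 0.25, edgeR adjusted p = 0.745). The median over all transcripts tested was -0.05, and 55.5% of them had a higher log2 fold change. The lower share of 5.8S therefore did not set it apart from the bulk of the short RNAs, since the median of all transcripts was -0.22 when libraries were scaled by their totals alone, where 5.8S had -0.26 (adjusted p = 0.251).

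The 5S rRNA had 257380, 290210 and 178720 CPM (mutant replicates 1 to 3) against 158310, 173510 and 217180 (wild-type replicates 1 to 3). Mutant replicate 3 lay within the wild-type range. Its log2 fold change of 0.40 (SE 0.22, 95% interval -0.10 to 0.90) did not pass (edgeR adjusted p = 0.414), and 12.4% of the transcripts tested had a higher value. In this test 1.22% of transcripts were called at an adjusted p below 0.10, and neither ribosomal RNA was among them. DESeq2 called 7.21% of transcripts, again without either, with log2 fold changes of -0.06 for 5.8S (DESeq2 adjusted p = 0.82) and 0.44 for 5S (adjusted p = 0.268). Without mutant replicate 3 the 5S log2 fold change was 0.60 (SE 0.17, edgeR adjusted p = 0.0803) and passed, in a fit that called 11.3% of transcripts. The call on 5S thus turned on that library.

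**Figure D3:**
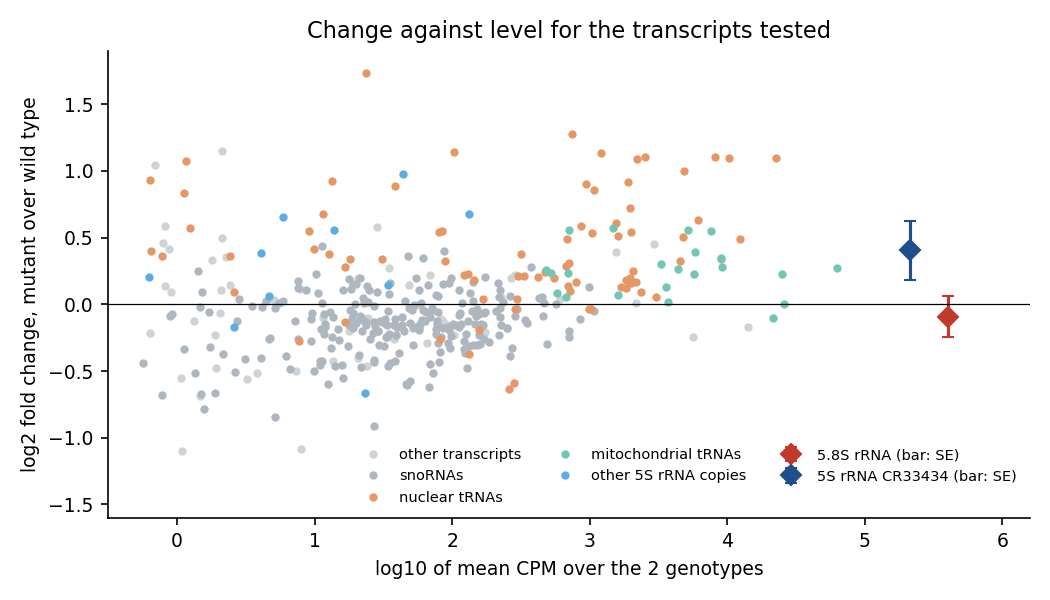
The edgeR log2 fold change (mutant over wild type, TMM scaling) against the log10 of mean CPM for the 411 transcripts tested, coloured by class, with the standard error drawn for the ribosomal RNAs. The 5.8S rRNA sits at -0.09, near the median of all transcripts (-0.05). The 5S rRNA sits at 0.40, within its standard error (0.22) of the medians of the nuclear tRNAs (0.34) and the mitochondrial tRNAs (0.25).

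The RNAs were next set against other classes within each library, where the ratio does not depend on the total. Relative to nuclear tRNAs, which are also Pol III products, the log2 ratio of 5.8S was 1.38, 1.21 and 1.24 (mutant replicates 1 to 3) against 2.03, 2.06 and 1.96 (wild-type replicates 1 to 3). The genotypes did not overlap. The difference was -0.74, or a ratio of 0.598-fold (exact permutation test, two-sided p = 0.1), but 72% of all transcripts tested likewise had a lower ratio to nuclear tRNAs in all mutant libraries. With the median nuclear tRNA in place of the sum, the difference was -0.405. Relative to the snoRNAs, most of which guide modification of ribosomal RNA, the log2 ratio of 5.8S was 4.11, 4.17 and 4.15 (mutant replicates 1 to 3) against 4.05, 4.21 and 4.15 (wild-type replicates 1 to 3). All 6 libraries lay between 4.05 and 4.21, with a difference between genotypes of 0.01 on the log2 scale (exact permutation test, two-sided p = 0.8). Against mitochondrial tRNAs, spliceosomal snRNAs and 7SL, the RNA of the signal recognition particle, the differences for 5.8S were -0.29, -0.09 and 0.08 on the log2 scale, and the genotypes overlapped in each. With class medians in place of sums, the difference for 5.8S was -0.37 against snRNAs and 0.098 against snoRNAs. Against the median mitochondrial tRNA it was -0.284, and the genotypes no longer overlapped (exact permutation test, two-sided p = 0.1). How many other transcripts separate from that reference was not counted. At 299 bases, 7SL exceeds the 200 nucleotides selected, and how much of it each library retained was not tested.

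For 5S the log2 ratio to nuclear tRNAs was 0.78, 0.80 and 0.07 (mutant replicates 1 to 3) against 0.74, 0.73 and 0.97 (wild-type replicates 1 to 3). Mutant replicates 1 and 2 lay within the wild-type range and mutant replicate 3 far below it, and the difference was -0.26 (exact permutation test, two-sided p = 0.6). It turned to 0.074 when the median tRNA replaced the tRNA sum. The spliceosomal snRNAs (U6 and U6atac included) gave the only one of the 5 reference classes against which 5S did not overlap, with log2 ratios of 4.26, 4.44 and 4.07 (mutant replicates 1 to 3) against 3.69, 3.87 and 4.05 (wild-type replicates 1 to 3). The difference was 0.39, or 1.31-fold (exact permutation test, two-sided p = 0.1), with mutant replicate 3 and wild-type replicate 3 almost touching. Such a separation was found in 8.27% of the transcripts tested. With the median snRNA in place of the sum the difference was 0.11 and the separation was lost (exact permutation test, two-sided p = 0.7). Against mitochondrial tRNAs, snoRNAs and 7SL the differences for 5S were 0.19, 0.49 and 0.56 on the log2 scale, all with overlap. Without mutant replicate 3 they were 0.52, 0.70 and 0.875. Without mutant replicate 2 they were 0.02, 0.32 and 0.42, and the first was 0.03, 0.07 and 0.10 without mutant replicate 1 and wild-type replicates 1 and 2. Over the 14 share and ratio tests, the lowest Benjamini-Hochberg adjusted value was 0.35, and no single test in this design can go below 0.1.

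**Figure D4:**
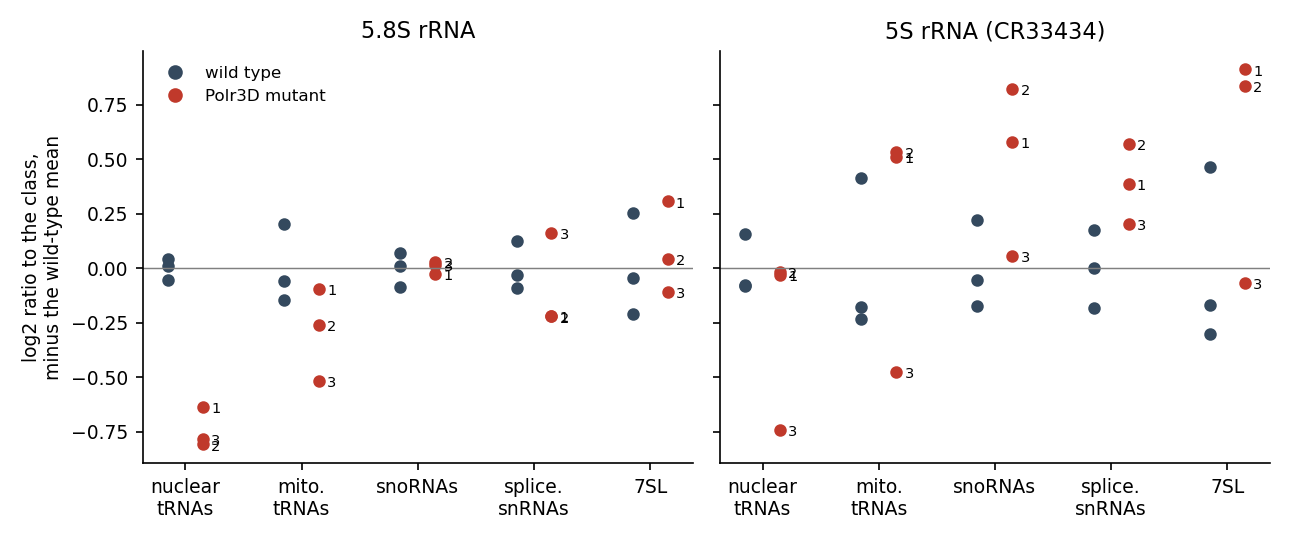
The log2 ratio of 5.8S (left) and 5S (right) to the summed counts of each class, minus the wild-type mean, with 1 point per library and the mutant replicates numbered. The 5.8S points to snoRNAs lie close to 0 in both genotypes (difference 0.01) and those to nuclear tRNAs do not overlap (difference -0.74), while for 5S mutant replicate 3 lies below the other mutant libraries against all 5 classes.

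Other rows of the RNA polymerase I product were few. Beside 5.8SrRNA:CR45852, the table listed 4 annotated 5.8S pseudogenes and 1 pseudogene fragment of 28S, and no 2S rRNA. The 4 pseudogenes of 5.8S passed the filter on low counts, which the 28S fragment did not, and none passed the edgeR test, with log2 fold changes from -0.26 to 0.14. Their summed counts ran from 0.396 to 0.478 per 1000 counts of 5.8S rRNA over the 6 libraries. Reads can be shared between such copies and the gene, so these rows may not be separate RNAs.

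The 10 other listed 5S copies together held 1.06 to 1.37 counts per 1000 of CR33434. None of the 10 passed the edgeR test, with 4 at an unadjusted p below 0.05, against 14.8% of all transcripts tested. DESeq2 called 2 of them higher, CR33366 (DESeq2 adjusted p = 0.091) and CR33441 (adjusted p = 0.0986), both named after their values were seen. Their edgeR log2 fold changes ran from -0.67 to 0.97 with a median of 0.295, and 8 were above 0, as were 44.5% of all transcripts tested. Nearly all 5S counts thus lay in the single row CR33434, and adding the other copies left the difference in the 5S to 5.8S ratio at 0.48.

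Among the snoRNAs of rRNA processing, none of the 4 listed passed the edgeR test. U3, which acts in early cleavage of the precursor, is listed at 54Ab and 9B, with log2 fold changes of -0.05 (SE 0.13, edgeR adjusted p = 0.835) and 0.15 (SE 0.12, adjusted p = 0.562). U14, which is needed for the 18S rRNA in yeast, is listed at 30Ea and 30Eb, with -0.45 (SE 0.22, adjusted p = 0.365) and -0.58 (SE 0.23, adjusted p = 0.31). U8, U13 and U17 are not listed under these names.

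Of the other Pol III products, 5 of 80 nuclear tRNAs tested were called higher by edgeR and none lower (30 at an unadjusted p below 0.05), whereas DESeq2 called 22 higher and 2 lower. Their edgeR values had a median log2 fold change of 0.34, from which 5S differed by 0.06. None of 7SL, U6, U6atac and RNase P RNA passed. Of these, 7SL and RNase P RNA are 299 bases long, above the 200 nucleotides selected. For 7SL the value was -0.17 on the log2 scale (SE 0.17, edgeR adjusted p = 0.623), RNase P RNA, the tRNA 5′-end processing enzyme's RNA, -0.21 (SE 0.20, adjusted p = 0.602), and the spliceosomal U6 0.19 (SE 0.17, adjusted p = 0.59). U6atac, of the minor spliceosome, had the largest difference of the 4, with -0.46 (SE 0.20, edgeR adjusted p = 0.331), and was the only one at an unadjusted p below 0.05. The mitochondrial tRNAs, products of another polymerase, had a median of 0.25 and no edgeR call among 22 (3 at an unadjusted p below 0.05, 1 called by DESeq2). The 243 snoRNAs tested had a median of -0.14 and no edgeR call (21 at an unadjusted p below 0.05, 2 called by DESeq2). At that unadjusted threshold lay 37.5% of nuclear tRNAs, 13.6% of mitochondrial tRNAs and 8.64% of snoRNAs, against 14.8% of all transcripts tested. Over all transcripts, edgeR called 1.22% and DESeq2 7.21%. Whether 5S differs from any of these classes was tested only through the ratios given above.

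The pattern of each RNA over the 6 libraries was compared with 211 other transcripts of at least 50 mean CPM, as a description only. All values share the TMM scaling and the same 6 libraries. The nearest to 5.8S were box C/D snoRNAs that guide methylation of 28S rRNA, namely snoRNA:Me28S-A2634b (Pearson r = 0.951), snoRNA:Me28S-A774b (r = 0.918) and snoRNA:Me28S-G3255a (r = 0.907), and the least alike was tRNA:Thr-CGT-1-1 (r = -0.921). By class, the median r with 5.8S was 0.29 for 110 snoRNAs and -0.30 for 60 nuclear tRNAs. It was likewise -0.27 for 22 mitochondrial tRNAs and -0.28 for 9 spliceosomal snRNAs.

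The nearest to 5S were snoRNA:Or-aca3 (r = 0.989), snRNA:U5:63BC (r = 0.984) and snoRNA:Psi18S-531 (r = 0.974), and the least alike was snoRNA:Psi28S-1837a (r = -0.962). U5 is a spliceosomal RNA made by RNA polymerase II, not Pol III. Its 63BC form had 3942 and 3932 CPM in mutant replicates 1 and 2 but 2270 in mutant replicate 3, against 2076, 2260 and 3073 (wild-type replicates 1 to 3). The libraries stood in the same order as for 5S, except that mutant replicates 1 and 2 changed places. Between genotypes U5:63BC had 0.45 on the log2 scale (SE 0.24, edgeR adjusted p = 0.407). The 3 nearest transcripts were 123 to 152 bases long, but so was the least alike, at 137 bases. Over the 64 transcripts compared that were 100 to 160 bases long, the median r with 5S was -0.055. It was -0.012 over the 131 shorter ones and -0.395 over the 15 longer ones. A link of the pattern with length was not tested. By class, the median r with 5S was 0.59 for 9 spliceosomal snRNAs and 0.25 for 60 nuclear tRNAs. It was -0.17 for 110 snoRNAs and -0.20 for 22 mitochondrial tRNAs. The r between 5S and 5.8S themselves was -0.31.

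Another scaling shifts all transcripts by about the same amount, so it moves the fold changes and, by construction, hardly the distance of an RNA from the median transcript. Over the reported fit and its 17 alternatives, the log2 fold change of 5.8S ran from -0.74 to 0.01 and that of 5S from -0.23 to 0.60. When 1 library was left out, the distance from the median of all transcripts ran from -0.10 to 0.01 for 5.8S and from 0.30 to 0.63 for 5S. The 5.8S rRNA passed in 2 scalings. With totals that leave out both ribosomal RNAs it had a log2 fold change of -0.40 (edgeR adjusted p = 0.0663), in a fit that called 25.8% of transcripts and put the median transcript at -0.36. With scaling on nuclear tRNAs, chosen after seeing the data, it had -0.74 (adjusted p = 0.00185), where 79.6% were called and the median transcript was at -0.69.

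**Figure D5:**
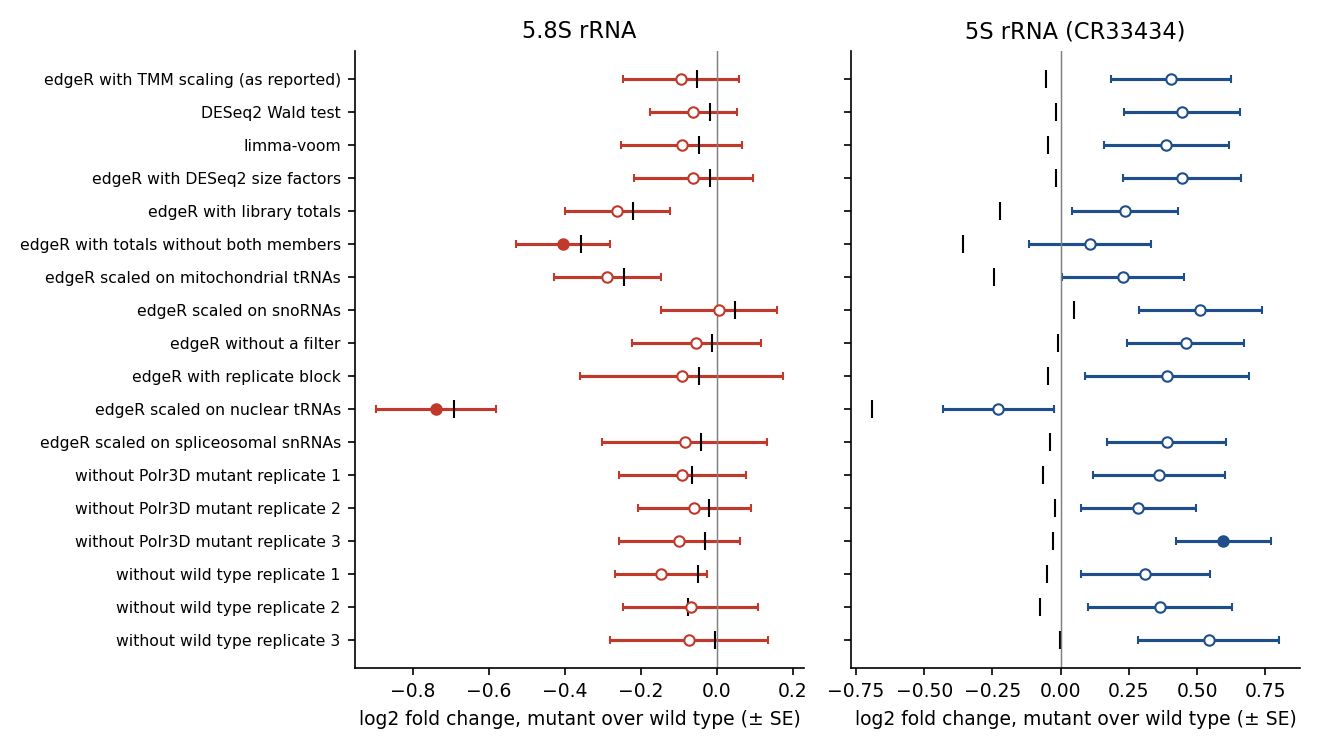
The log2 fold change (mutant over wild type, ± SE) of 5.8S (left) and 5S (right) in the reported edgeR fit and its alternatives, with filled points past an adjusted p of 0.10 and black ticks at the median of all transcripts in that fit. A change of scaling moves points and ticks together by construction, while leaving out 1 library moves the 5S points from 0.30 to 0.63 above their ticks.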

How the data were processed

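Short RNA of 6 midgut libraries was analysed from 1 deposited table. After FastQC and Cutadapt (v2.10), the authors used Salmon (v0.13.2) on a decoy-aware index of coding and noncoding transcripts (BDGP6.32) to make the deposited estimated counts, kept for transcripts under 300 bases (299 at most in exons here), as whole numbers unscaled for depth. Salmon divides reads that fit several transcripts among them. Of 531 identifiers, 527 were matched to the Ensembl BDGP6.54 annotation of the same assembly, and sequences were not used here.

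Groups came from sample titles. Counts were fitted in R (4.3.3) with edgeR (4.0.16): filterByExpr (minimum count 10, minimum total 15) kept 411 transcripts, TMM scaling, glmQLFit and glmQLFTest on genotype alone, Benjamini-Hochberg adjustment over all of them and a threshold of 0.10, the study's false discovery rate. The edgeR script was tested on simulated data. SciPy (1.17.1) gave exact permutation tests of shares and ratios. Summed snRNAs include U6 and U6atac. Alternatives were DESeq2 (1.42.0), the tool of the study, limma-voom (3.58.1), other scalings, no filter, a replicate block and leaving out each library. Named RNAs were the ribosomal pair, the 3 transcripts most like and the 1 least like each, and the listed rRNA, processing and Pol III RNAs. The members and lists were chosen with earlier results of these data known.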

Additional observations from a re-analysis of the deposited data

How the results depend on the processing

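The number of transcripts called depended on the method: 5 in the reported fit, 30 with DESeq2, 0 with limma-voom (61 at an unadjusted p below 0.05), 10 with DESeq2's size factors in edgeR, 16 with library totals, 106 with totals that leave out both ribosomal RNAs, 10 scaled on snoRNAs, 16 without a filter, and, chosen after seeing the data, 327 scaled on nuclear tRNAs and 0 on spliceosomal snRNAs (36 at an unadjusted p below 0.05). The 5 calls were all higher, against 8 higher and 8 lower with library totals, 11 and 95 without the pair, and 8 and 319 on nuclear tRNAs. Leaving out 1 library gave 0 to 47 calls, with 12, 1 and 47 without mutant replicate 1, 2 and 3 and 0 without wild-type replicate 1, 2 or 3 in turn (42 to 49 at an unadjusted p below 0.05). The 5.8S log2 fold change was -0.40 and -0.74, past the threshold, with totals without the pair and scaled on nuclear tRNAs, 0.01 scaled on snoRNAs, and -0.15 to -0.06 when 1 library was left out. The 5S value was -0.23 scaled on nuclear tRNAs and 0.28 to 0.60 when 1 library was left out. The cause of these shifts was not tested, except that a reference class set to no change moves every transcript. The 5S ratio to nuclear tRNAs was 0.074 with the median tRNA as the reference. With 1 library left out, the 5.8S log2 ratio ran from -0.034 to 0.044 to snoRNAs and from -0.031 to 0.209 to 7SL, changing sign. Other shares and ratios kept their direction, though not their size.

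A fit with replicate number as an added block called 14 transcripts, and the log2 fold changes were -0.09 for 5.8S (edgeR adjusted p = 0.899) and 0.39 for 5S (adjusted p = 0.645). Deviations of same-numbered libraries correlated at -0.16 on average. The labels do not say whether such libraries were handled together, and this average cannot decide it. Paired by number, the 5.8S share differed by -5.99, -9.87 and -6.17 percentage points (exact sign-flip p = 0.25, the smallest for 3 pairs).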
